A study of Homo sapiens with 4 samples.

Results

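Mitochondrial RNA is made and kept by proteins that are encoded in the nucleus, and the transcripts of 10 genes for such proteins, TFAM, POLRMT, TFB1M, TFB2M, TEFM, LRPPRC, SLIRP, MTERF3, FASTKD2 and PNPT1, were followed here in H1299 cells, a human non-small-cell lung carcinoma line, with and without mercury chloride (HgCl2). The genes share a known role in mitochondrial RNA. The deposited count table lists 66 transcripts of these genes among 227368 in all, and 12 of the 66, from 8 genes, averaged at least 10 counts over the 4 columns. Another 19 had counts below that mean and 35 had 0 counts in every column. Just inside this limit lay MTERF3-203 with a mean of 16.5 counts and just outside it TFB1M-208 with 5.50. One group received 5 μM HgCl2 and the other the solvent ethanol (EtOH), both for 48 h. The table gives 2 columns to each group, numbered as replicates 1 and 2. The treatment text of the labels gives the 5 μM for every sample, whereas the titles and the study's methods make the EtOH group the untreated control, which is how it is used here. Poly-A RNA was sequenced in all samples. All cells come from 1 line, so the values describe H1299 alone.

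The mitochondrial genome is transcribed from a few promoters into long RNAs that span many genes. TFAM bends and packages the DNA, TFB2M helps the RNA polymerase POLRMT to open a promoter, and TEFM keeps the polymerase moving. TFB1M methylates the small ribosomal RNA and MTERF3 acts on transcription and on ribosome assembly. LRPPRC and SLIRP form a complex that coats and stabilises mitochondrial messenger RNAs, FASTKD2 binds mitochondrial RNA in granules where ribosomes are assembled, and PNPT1 is the exonuclease of the mitochondrial RNA degradosome.

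In the HgCl2 library the coding transcripts of TFAM, TFB2M, LRPPRC and FASTKD2, the members with the most counts, differed from the EtOH library by less than 2-fold. TFAM was 1.24-fold higher. The transcripts that differed by more were ones with few counts: a nonsense-mediated decay transcript and a retained-intron transcript of LRPPRC were 6.35-fold and 4.62-fold higher, a short transcript of MTERF3 was 5.60-fold higher, and the coding transcript of PNPT1 was at 0.198 of its EtOH level. POLRMT had no counts in either group.

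The total counts per column were between 4720978 and 5053120. Before use, the columns of a group were compared over all transcripts whose 2 counts added up to at least 20. The variance of their difference was 0.504 times (EtOH, 95% confidence interval 0.492 to 0.517) and 0.516 times (HgCl2, 0.503 to 0.530) what counting noise alone gives between independent libraries, against 31.9 times between an EtOH and an HgCl2 column. Over the member transcripts alone the ratio was 1.03 for EtOH (0.532 to 2.82, 12 transcripts), which is what independent libraries give, and 0.239 for HgCl2 (0.120 to 0.688, 11 transcripts). Over all transcripts, columns of the same group thus lay closer together than sampling noise allows for separate libraries, and each group was taken as 1 sample (n = 1) whose value is the mean of both. No replicate check exists for a difference between the groups, and no p-value is given. Where columns are said to overlap or not, this describes them and adds no support for a difference between the groups. Intervals are exact 95% counting intervals (Clopper-Pearson) from the mean counts, and they cover counting error only. Of markers of the line, VIM had 620, 628, 501 and 511 counts summed over its transcripts, in the order EtOH replicates 1 and 2, HgCl2 replicates 1 and 2. KRT8 had 53, 58, 4 and 4 counts and KRT18 had 23, 24, 18 and 31. Of the markers of other cell types, PTPRC, CD3E, EPCAM and SFTPC were at 0 in all columns, PECAM1 had at most 5 counts and COL1A1 at most 18. As in any bulk sample, fewer cells with a transcript and less of it per cell cannot be told apart.

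Values are given per transcript, because main coding transcripts without bases of their own mostly had no counts. Bases of its own are those that no other transcript in the table covers. Of the 4567 main (MANE Select) coding transcripts without such a base, 95.1% had 0 counts in all columns. A transcript's count is therefore not read as the level of its gene. Log2 fold changes are HgCl2 minus EtOH on counts scaled by TMM, a normalization that assumes most transcripts to be alike, over the 11891 transcripts that averaged 10 counts or more. Of these, 40.3% differed at least 2-fold, 19.0% higher and 21.3% lower in HgCl2, and 64.9% had a counting interval that left out 0, 33.8% higher and 31.1% lower. On the deposited FPKM scale, log2(FPKM + 0.1), the split at 2-fold was 24.5% higher and 15.7% lower. Among the 12 member transcripts, 4 differed at least 2-fold (33.3%), 3 higher and 1 lower. The interval left out 0 for 7, with 4 higher and 3 lower. Neither share of the members was above that of all transcripts, and the median log2 fold change of the 12 was -0.041, against 0.007 for all transcripts tested.

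**Figure D1:**
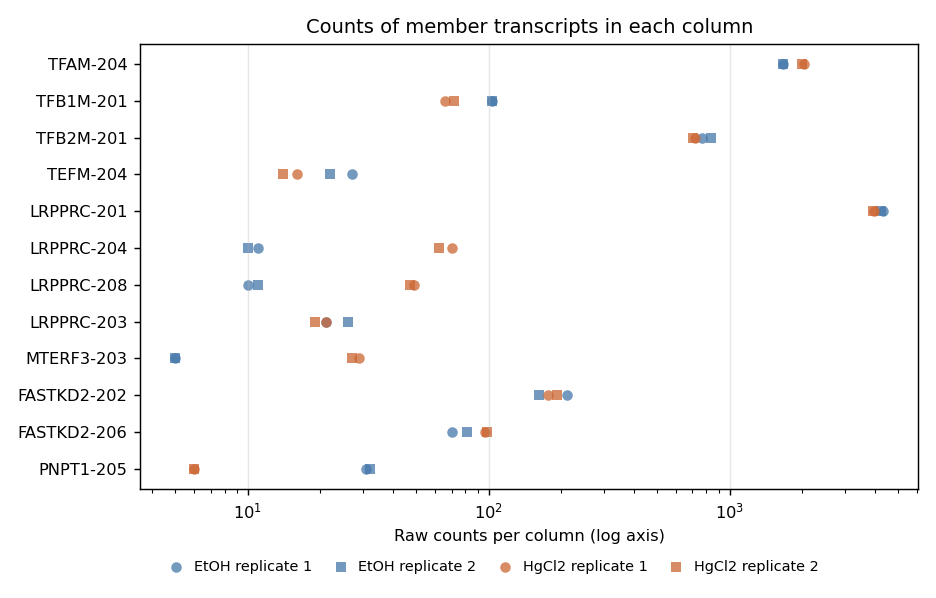
Raw counts (x axis, log scale) of the 12 member transcripts (y axis) in each column, with EtOH in blue and HgCl2 in orange and circles and squares for replicates 1 and 2. The 2 columns of a group lie close together, LRPPRC-201 has the most counts (3919 to 4330) and the HgCl2 points of LRPPRC-204, LRPPRC-208 and MTERF3-203 lie to the right of the EtOH points.

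Of the promoter machinery, TFAM had its counts on the main transcript TFAM-204 (ENST00000487519, chromosome 10 from 58385410 to 58399220 of GRCh38, plus strand). It had 1662 and 1667 counts in EtOH against 2039 and 1997 in HgCl2. The HgCl2 columns were the higher ones and the groups did not overlap. The log2 fold change was 0.31 (0.21 to 0.40), below the 2-fold threshold. The 3932 bases of its own are 1 block at the 3′ end beyond the coding sequence, from position 58395289 to 58399220. Of the other TFAM transcripts, TFAM-202 had 2, 1, 0 and 0 counts in the same order of columns and TFAM-201 and TFAM-203 had none. The TFAM pseudogenes TFAMP1 and TFAMP2 held at most 1 count in a column.

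TFB2M, the partner of the polymerase at promoters, has a single listed transcript, TFB2M-201 (ENST00000366514, chromosome 1 from 246540561 to 246566261, minus strand), all of whose 1784 bases are its own. It had 770 and 839 counts in EtOH and 720 and 705 in HgCl2. The HgCl2 columns were both lower than the EtOH columns, but the log2 fold change of -0.15 had an interval (-0.29 to 0.002) that held 0, and on the deposited FPKM scale the value was 0.15. TFAM-204 was also set against other members within each library, where the scaling plays no part. Per count of TFB2M-201 there were 2.16 and 1.99 counts of TFAM-204 with EtOH, against 2.83 and 2.83 with HgCl2. On the log2 scale this ratio was higher by 0.45 in HgCl2 (95% counting interval 0.28 to 0.63). The ratio of TFAM-204 to LRPPRC-201 was also higher, by 0.40 (0.28 to 0.51), while that of TFB2M-201 to LRPPRC-201 differed by -0.056 (-0.22 to 0.10).

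POLRMT, the polymerase itself, had 0 counts on all 8 of its listed transcripts in every column. A count of 0 allows up to 3 counts, or 0.594 to 0.635 CPM (counts scaled to the library total) over the 4 columns. The main transcript, POLRMT-202 (ENST00000588649, chromosome 19 from 617221 to 633537, minus strand), has 1525 bases of its own. Such zeros were common in the table. Of the 6035 main coding transcripts with at least 1000 bases of their own, 35.4% had 0 counts in all columns. The level of POLRMT is thus not known from these counts in either group.

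TEFM, the elongation factor, had its counts on TEFM-204 (ENST00000580840, chromosome 17 from 30898986 to 30906235), with 27 and 22 counts in EtOH and 16 and 14 in HgCl2. Both HgCl2 columns were lower, and the log2 fold change was -0.67 with an interval of -1.71 to 0.31, too wide at this depth to place the difference on either side of 0. The main transcript TEFM-205, with 3 bases of its own, had no counts. TFB1M, the ribosomal RNA methylase, was counted on its main transcript TFB1M-201 (ENST00000367166, chromosome 6 from 155256134 to 155314484) with 103 and 103 counts in EtOH and 66 and 72 in HgCl2. The groups did not overlap, and the log2 fold change was -0.55 (-1.01 to -0.094), lower in HgCl2 but short of 2-fold. On the deposited FPKM scales the value was -0.22 and -0.25 (pseudocounts of 1 and 0.1), and the interval, moved by the 0.29 between the scales, would hold 0.

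Other transcripts of TFB1M were lower as well. TFB1M-208, annotated without a coding sequence, had 11 and 10 counts in EtOH and 0 and 1 in HgCl2, and TFB1M-209, of the same class, had 6 and 4 against 1 and 0. Lower counts in HgCl2 were common for transcripts of all genes with few counts in EtOH, taken without regard to their class. Transcripts that averaged between 8 and 12 counts in EtOH had a median of 3.5 in HgCl2. Counts fell on 33148 and 33106 transcripts in the EtOH columns and on 25432 and 25531 in the HgCl2 columns. With all transcripts summed, TFB1M had 122 and 120 counts in EtOH and 67 and 73 in HgCl2, a log2 fold change of -0.76 (-1.21 to -0.32). The share of the gene's counts on transcripts without a defined coding sequence was 14.9% in EtOH (Wilson 95% confidence interval 9.62% to 22.3%) and 1.43% in HgCl2 (0.253% to 7.66%). The count of TFB1M-201 rests on a short stretch. Only 68 of its 2799 bases are its own, all of them coding, and they are shown in capitals between 20 shared bases on either side, from chr6:155257889-155257996 of GRCh38, minus strand.
TFB1M-201: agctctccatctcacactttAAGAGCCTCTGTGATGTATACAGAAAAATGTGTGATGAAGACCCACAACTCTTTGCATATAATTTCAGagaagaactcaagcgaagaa
With so few bases of its own, the FPKM of 6.70 in EtOH, which divides by the whole length, sets TFB1M far below TFB2M (82.1). Per kilobase of bases of its own, TFB1M-201 had 1515 counts in EtOH and TFB2M-201 had 451. The order of TFB1M and TFB2M therefore depends on the length used.

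MTERF3 had its counts on a short coding transcript, MTERF3-203 (ENST00000522822, chromosome 8 from 96239424 to 96257275), and not on the main transcript MTERF3-201, where 0 counts fell and no base is free of overlap. MTERF3-203 had 5 and 5 counts in EtOH and 29 and 27 in HgCl2. Both HgCl2 columns were above both EtOH columns, and the log2 fold change was 2.48 (1.12 to 4.24). MTERF3-202 had 2, 3, 1 and 1 counts and MTERF3-204 had 3, 2, 0 and 3, so the other transcripts with counts were not higher. Summed over its transcripts, MTERF3 had 10 and 10 counts in EtOH and 30 and 31 in HgCl2. MTERF3-203 passed the minimum of 10 counts through its HgCl2 columns alone, and its 161 bases of its own are all outside the annotated coding sequence.

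LRPPRC, which holds mitochondrial messengers in a stable form, had the most counts of the 10 genes. Its main transcript LRPPRC-201 (ENST00000260665, chromosome 2 from 43886224 to 43995989, minus strand, 38 exons) had 4330 and 4238 counts in EtOH and 3971 and 3919 in HgCl2. The HgCl2 columns were lower, with a log2 fold change of -0.089 (-0.15 to -0.027), a ratio of 0.940. Its sign turned with the scaling: it was -0.021 with library totals and 0.20 on the deposited FPKM scale. Set against the median of all transcripts tested, it lay between -0.096 and -0.092 under 7 ways of scaling and testing. A change of scaling moves all transcripts nearly alike, so this range was close to fixed in advance and shows no stability. With no filter on counts, LRPPRC-201 was at 0.16 and the median of all transcripts at -0.83. LRPPRC-203, a coding transcript of the first part of the gene, had 21 and 26 counts in EtOH and 21 and 19 in HgCl2 (-0.20, -1.14 to 0.72), and the groups met at 21 counts.

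The minor transcripts from the last part of LRPPRC went the other way. LRPPRC-204 (ENST00000419884, chromosome 2 from 43888273 to 43899605) and a nonsense-mediated decay transcript by its annotation, had 11 and 10 counts in EtOH and 70 and 62 in HgCl2. LRPPRC-208 (ENST00000472420, chromosome 2 from 43896237 to 43912785), a retained intron, had 10 and 11 counts in EtOH and 49 and 47 in HgCl2. In both, the HgCl2 columns were far above the EtOH columns, with log2 fold changes of 2.67 (1.73 to 3.78) and 2.21 (1.24 to 3.34). Of the 2456 transcripts that averaged between 8 and 12 counts in EtOH, 4.76% had at least 40 counts in HgCl2. The median of the 2456 in HgCl2 was 3.5 counts. The limit of 40 was set with the LRPPRC values in view and lies below both. The LRPPRC values stood at percentiles 94.4 and 92.4 of all transcripts tested.

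The sequences show part of what sets these transcripts apart from the main message. LRPPRC-204 carries an extra exon of 199 bases (chromosome 2 from 43895368 to 43895566) that LRPPRC-201 lacks, and its annotated reading frame ends inside it, with 4 exons still to follow. The coding part of this exon is shown from chr2:43895396-43895566 of GRCh38, minus strand, with the stop codon in capitals. LRPPRC-208 begins within an intron. Its first 227 bases (chr2:43912559-43912785, minus strand), which LRPPRC-201 splices out, are shown with the AG of the splice acceptor in capitals.
LRPPRC-204: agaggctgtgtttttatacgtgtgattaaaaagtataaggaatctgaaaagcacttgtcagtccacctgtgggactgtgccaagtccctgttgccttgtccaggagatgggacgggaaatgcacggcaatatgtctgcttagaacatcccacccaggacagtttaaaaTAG
LRPPRC-208: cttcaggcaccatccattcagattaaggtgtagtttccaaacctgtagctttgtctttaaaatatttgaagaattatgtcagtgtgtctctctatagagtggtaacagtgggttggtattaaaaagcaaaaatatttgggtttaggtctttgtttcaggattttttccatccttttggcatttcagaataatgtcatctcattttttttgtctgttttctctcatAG
LRPPRC-204 and LRPPRC-208 have 339 and 374 bases of their own, and none of these is shared between them. Of these bases, 140 and 147 lie outside the extra exon and the intron stretch described above. As a share of all LRPPRC counts, which does not depend on the scaling of the columns, LRPPRC-204 was at 0.242% in EtOH (Wilson 95% confidence interval 0.134% to 0.439%) and 1.62% in HgCl2 (1.27% to 2.05%). For LRPPRC-208 the shares were 0.242% (0.134% to 0.439%) and 1.18% (0.888% to 1.55%). All LRPPRC transcripts annotated as non-coding or decay targets together took 0.577% in EtOH (0.391% to 0.850%) and 2.91% in HgCl2 (2.44% to 3.48%). Not every such transcript was higher: LRPPRC-206, a retained intron with 2407 bases of its own, had 2, 2, 1 and 2 counts, and the coding transcripts still held 97.1% of the counts in HgCl2. With all transcripts summed, LRPPRC had 4377 and 4290 counts in EtOH and 4114 and 4054 in HgCl2, a log2 fold change of -0.056 (-0.12 to 0.006).

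**Figure D2:**
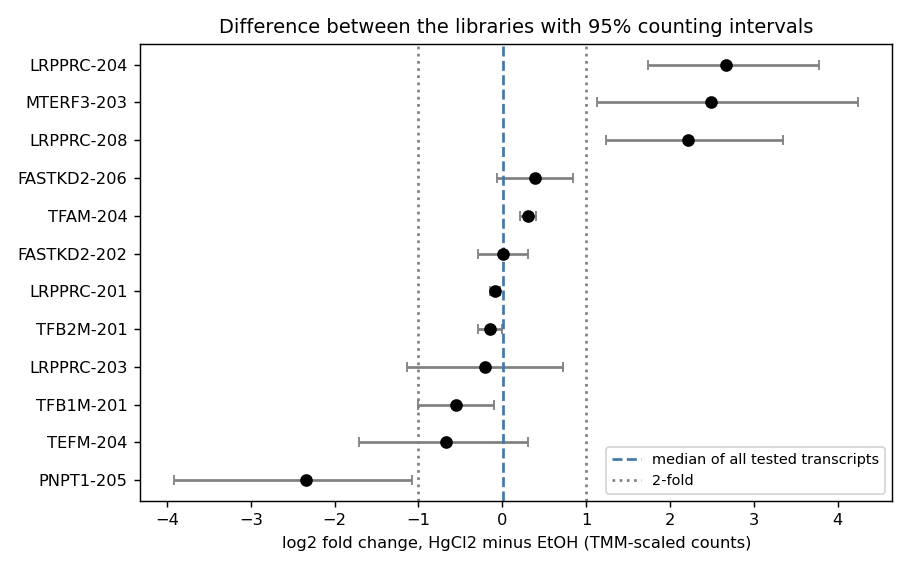
Log2 fold change between the libraries, HgCl2 minus EtOH on TMM-scaled counts (x axis), for the 12 member transcripts (y axis), with exact 95% counting intervals as bars, the median of all tested transcripts dashed and 2-fold dotted. LRPPRC-204, MTERF3-203 and LRPPRC-208 lie beyond 2-fold on the right, PNPT1-205 on the left at -2.34, and the intervals of LRPPRC-203, TEFM-204, TFB2M-201, FASTKD2-202 and FASTKD2-206 hold 0.

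SLIRP, the partner of LRPPRC, had no transcript with a mean of 10 counts. Of its 12 listed transcripts 6 had any count, and the main transcript SLIRP-209, without a base of its own, had 0. Summed, SLIRP had 6 and 6 counts in EtOH and 12 and 12 in HgCl2. The log2 fold change of 1.03 had an interval from -0.50 to 2.73, so a difference was not detectable at this depth.

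FASTKD2, which binds the large ribosomal RNA, was counted on 2 transcripts. The main transcript FASTKD2-202 (ENST00000402774, chromosome 2 from 206765606 to 206796189, plus strand) had 211 and 162 counts in EtOH and 176 and 191 in HgCl2. The groups overlapped and the log2 fold change was 0.006 (-0.30 to 0.31). The retained-intron transcript FASTKD2-206 (ENST00000487777, chromosome 2 from 206765647 to 206791946) had 70 and 81 counts in EtOH and 96 and 98 in HgCl2. Both HgCl2 columns were higher, but the interval of the log2 fold change of 0.39 held 0 (-0.058 to 0.84). Its share of the FASTKD2 counts was 28.7% in EtOH (Wilson 95% confidence interval 23.5% to 34.4%) and 34.6% in HgCl2 (29.3% to 40.3%), and the intervals overlapped. Besides 859 bases of its own from position 206790824 to 206791682, FASTKD2-206 keeps an intron of 1668 bases, from position 206788904 to 206790571, that no other listed transcript covers. The junction is shown from chr2:206788874-206788963, plus strand, with the GT of the unused splice donor in capitals after the last bases of the exon.
FASTKD2-206: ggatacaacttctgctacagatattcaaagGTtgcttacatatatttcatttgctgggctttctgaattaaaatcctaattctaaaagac
In contrast to LRPPRC, the intron-holding transcript of FASTKD2 was a large part of the gene's counts in both groups.

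PNPT1, the RNA-degrading enzyme, had 31 and 32 counts in EtOH and 6 and 6 in HgCl2 on its main transcript PNPT1-205 (ENST00000447944, chromosome 2 from 55634061 to 55693844, minus strand, 28 exons). Both HgCl2 columns were below both EtOH columns. The log2 fold change of -2.34 (-3.91 to -1.08) was the lowest of the 12 transcripts and stood at percentile 4.44 of all transcripts tested. The 752 bases of its own lie beyond the coding sequence at the 3′ end, and the transcript passed the minimum of 10 counts through its EtOH columns alone. PNPT1-206, a retained intron, had 2, 0, 1 and 1 counts, and the remaining 5 transcripts had none. The pseudogene PNPT1P1 had at most 2 counts in a column.

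The differences were read against transcripts with like counts, in bins set after the data were seen. Of the 4735 tested transcripts that averaged between 10 and 30 counts, 65.2% differed at least 2-fold, 28.4% higher and 36.8% lower. Of the 5 member transcripts in that range, LRPPRC-208 and MTERF3-203 were higher, PNPT1-205 lower, and LRPPRC-203 and TEFM-204 within 2-fold. From 30 to under 100 counts, 40.6% of 3256 transcripts and 1 of 3 members (LRPPRC-204) differed at least 2-fold. At 100 to under 1000 counts 6.49% of 3050 transcripts were higher and 5.51% lower by this measure, and at 1000 or more 2.59% of 850 differed, with 0 of the 4 members in these ranges. TFAM-204 and LRPPRC-201 are the members with more than 1000 counts, where 82.1% of all transcripts had a counting interval that left out 0.

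**Figure D3:**
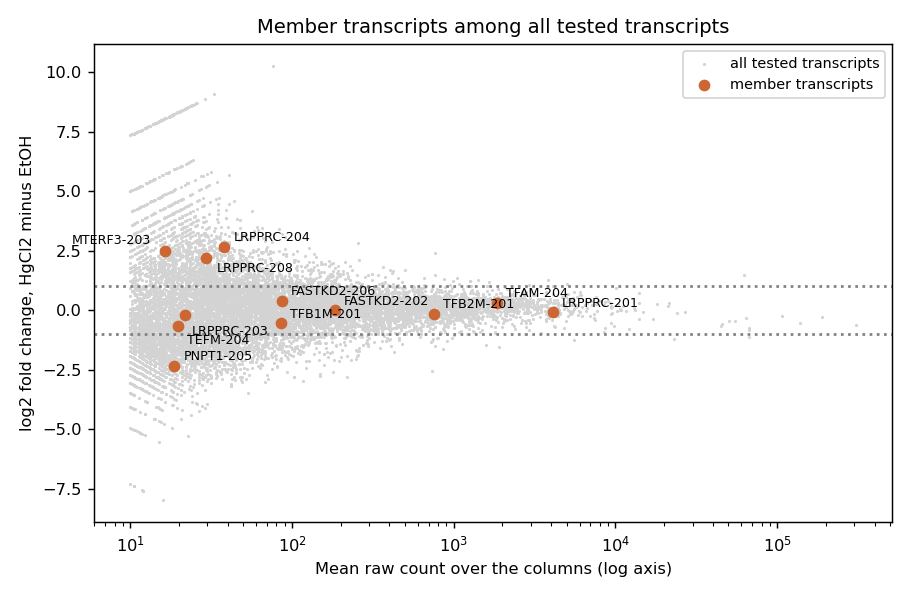
Log2 fold change (y axis) against the mean raw count (x axis, log scale) of the 11891 tested transcripts in grey and the 12 member transcripts in orange, with 2-fold dotted. The spread of all transcripts is widest at few counts, and the 4 members beyond 2-fold all lie at means under 40 counts.

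Between genes, levels were compared as the deposited FPKM of each transcript, which accounts for its whole length. With only the bases of its own as length, the order is another one: in EtOH LRPPRC-201 had 1591 counts per kilobase, TFB1M-201 1515, TFB2M-201 451 and TFAM-204 423, which places TFB1M above TFB2M and TFAM. By FPKM the order in EtOH was LRPPRC-201 (mean FPKM 118), TFB2M-201 (82.1), TFAM-204 (60.3), TFB1M-201 (6.70) and FASTKD2-202 (5.06), followed by 7 transcripts between 0.793 (MTERF3-203) and 2.75. Among these last, FASTKD2-206 and LRPPRC-208 overlapped in their columns, as did LRPPRC-203, LRPPRC-204 and TEFM-204, and LRPPRC-203 reached into FASTKD2-206. In HgCl2, LRPPRC-201 (136) again came first, followed by TFAM-204 (91.3) and TFB2M-201 (90.8), whose columns overlapped. LRPPRC-204 (16.9) and LRPPRC-208 (15.7) came next and overlapped each other, ahead of FASTKD2-202 (6.22). TFB1M-201 (5.61) and MTERF3-203 (5.55) overlapped as well. PNPT1-205 was last, with an FPKM of 0.300 in both columns, and had 1.24 and 1.28 in the EtOH columns. The FPKM scale itself places all HgCl2 values higher by 0.29 on the log2 scale than TMM does, so FPKM are compared here within a group.

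**Figure D4:**
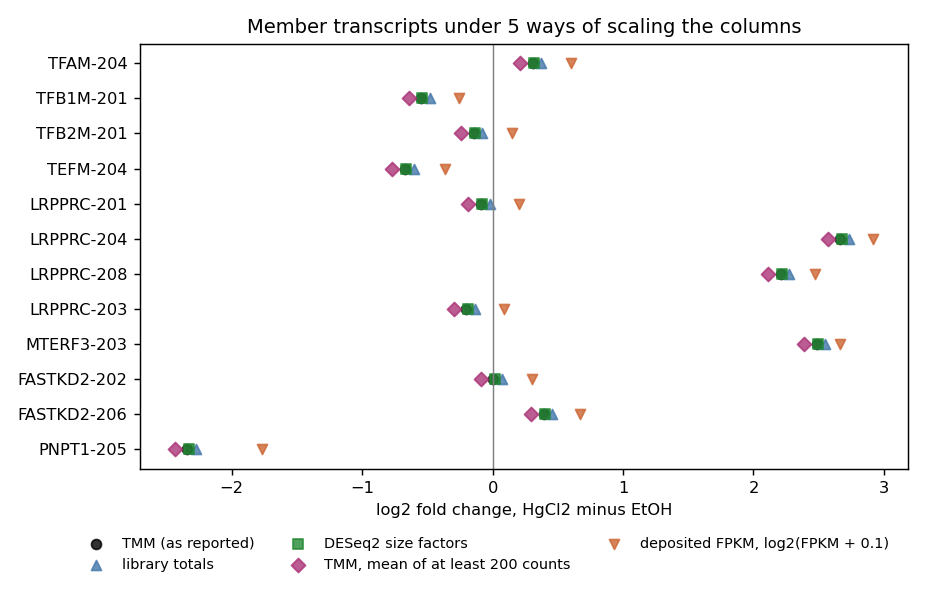
Log2 fold change, HgCl2 minus EtOH (x axis), of the 12 member transcripts (y axis) under 5 ways of scaling the columns, one marker each, with 0 as a grey line. LRPPRC-201 and TFB2M-201 lie below 0 with TMM, DESeq2 size factors and library totals and above it on the deposited FPKM scale (0.20 and 0.15), and TFAM-204 lies above 0 under each of them (0.21 to 0.60).

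The RNAs that these factors make or hold were lower for the most part. Of the 13 protein-coding transcripts annotated on mitochondrial DNA, 12 had a log2 fold change below 0, with a median of -0.54 over the 13. Their values ran from -1.19 (MT-CYB) upward, with MT-ATP8 at 0.25 as the exception. These are annotated per gene and are not all separate messages. This median was -0.25 on both FPKM scales and -0.29 with no filter on counts. The mitochondrial ribosomal RNAs MT-RNR1 and MT-RNR2 were at -0.78 and -0.27. MT-ND1 (-0.090), MT-ND4L (-0.12) and MT-RNR2 lie within the 0.29 by which the FPKM scale is higher. All tested transcripts that averaged 1000 counts or more had a median of 0.14. The part that any member has in these values was not tested.

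Other genes of the same pathways were taken from 6 lists, grouped by known function, with 65 genes in all. A transcript with a mean of at least 10 counts was found for 41 of them, and 67 such transcripts were tested. Of these, 9 were at least 2-fold higher and 19 at least 2-fold lower in HgCl2 (41.8% together, against the 40.3% of all transcripts). The median log2 fold change of the 67 was -0.10. Most of the 19 averaged under 10 counts in HgCl2, such as TRNT1-210 (3.0) and DDX28-201 (3.5), and passed the minimum through EtOH alone. Of the 9, EXOG-202 (6.5), TOP3A-216 (7.0) and REXO2-214 (5.0) averaged under 10 in EtOH and passed through HgCl2 alone. The split into higher and lower, here and per list, thus depends partly on the minimum and is not read as a direction. The shares to read the single lists against are 19.0% higher and 21.3% lower, and with 7 to 15 transcripts a list a few transcripts decide its share. In each list, the examples are the transcripts with the most counts past both 2-fold and the counting interval.

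The list of other MTERF and FASTK genes, which also holds MTRES1, a gene of neither family, had 8 tested transcripts. Of these 5 were at least 2-fold lower and 1 higher, with a median log2 fold change of -1.39. Without MTRES1-203 (-1.56) 4 of 7 were at least 2-fold lower and the median was -1.37. MTERF4-212 (a mean of 25.5 counts in EtOH and 4.0 in HgCl2) and TBRG4-213 (16.0 and 6.0) passed the minimum through EtOH alone. The interval of TBRG4-213 held 0 (-3.03 to 0.042). Both averaged between 10 and 30 counts, where 36.8% of all tested transcripts were at least 2-fold lower. FASTKD1-206 (0.66), FASTKD1-203 (1.19) and FASTKD5-201 (0.51) had values above 0. FASTKD1-204, the main transcript of another mitochondrial RNA-binding protein, had 58 and 63 counts in EtOH and 16 and 10 in HgCl2 (-2.18, -3.18 to -1.31). MTERF2-207 had 53 and 51 against 18 and 20 (-1.42, -2.26 to -0.64). In both, the HgCl2 columns lay below the EtOH columns, whereas those of MTERF3-203 lay above.

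Among the nucleases and proteins that process mitochondrial RNA, 3 of 11 transcripts were at least 2-fold lower and 1 higher, with a median of -0.63. Several of the 11 belong to 1 gene, PTCD3, which encodes a protein of the mitochondrial small ribosomal subunit. Its retained introns PTCD3-211 and PTCD3-216 are among the 3 lower ones, and its main transcript PTCD3-201 was at -0.76 (-0.91 to -0.6). PTCD3-211 had 55 and 53 counts in EtOH and 22 and 14 in HgCl2 (-1.55, -2.41 to -0.76). ANGEL2-204, without a defined coding sequence, had 70 and 65 against 191 and 193 (1.54, 1.13 to 1.96). For the degradosome, poly(A) enzymes and RNA granule, to which PNPT1 belongs, 3 of 15 were lower and 2 higher, with a median of -0.17. Both examples here were minor transcripts of REXO2, an exonuclease for short RNAs, and they differed in direction: REXO2-217 had 86 and 64 counts against 32 and 35 (-1.13, -1.77 to -0.53), and REXO2-204 had 19 and 21 against 49 and 44 (1.24, 0.46 to 2.08).

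For replication of mitochondrial DNA and the nucleoid, in which TFAM also acts, 4 of 15 transcripts were at least 2-fold lower and 3 higher (median 0.062). Retained introns of POLG, the mitochondrial DNA polymerase, and of the topoisomerase TOP3A were higher, POLG-227 with 8 and 14 against 60 and 54 counts (2.39, 1.46 to 3.48) and TOP3A-216 with 8 and 6 against 55 and 54 (2.97, 1.85 to 4.37). TOP3A-216 passed the minimum through its HgCl2 columns alone. The main transcript TOP3A-201, with means of 200.5 counts in EtOH and 118.5 in HgCl2, was lower, at -0.73 (-1.07 to -0.39). Of the retained introns of other genes of this list, CLPX-202 (-1.62), EXOG-214 (-1.59) and SSBP1-212 (-1.27) were lower. SSBP1-213 was at 0.33 with an interval that held 0 (-0.95 to 1.66). CLPX-202 and EXOG-214 averaged 5.5 and 9.0 counts in HgCl2, so they passed the minimum through EtOH. Of 11 transcripts of RNA-modifying enzymes, 2 were lower and 1 higher (median 0.081). TRMU-210, without a defined coding sequence and of a gene for a transfer RNA thiolase, had 127 and 115 against 36 and 25 counts (-1.95, -2.58 to -1.38). The retained intron CDK5RAP1-209 had 55 and 49 against 111 and 121 (1.19, 0.70 to 1.69). Of 7 transcripts of nuclear regulators, 2 were lower and 1 higher (median 0.12). YY1-206, a retained intron of a transcription factor gene, was at 1.47 (0.67 to 2.34). The main transcript YY1-201 was at 0.12 with an interval that held 0 (-0.004 to 0.24). CREB1-201, the main transcript of another transcription factor gene, was at -1.36 (-2.44 to -0.39).

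**Figure D5:**
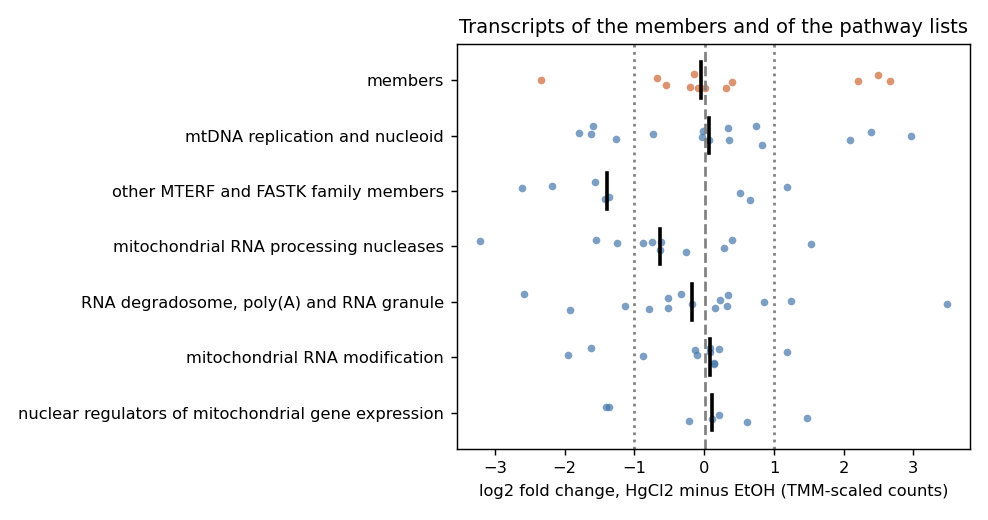
Log2 fold change, HgCl2 minus EtOH on TMM-scaled counts (x axis), of every tested transcript of the members (orange) and of 6 pathway lists (blue), with the median of each list as a black bar, the median of all tested transcripts dashed and 2-fold dotted. Each list holds transcripts on both sides of 0, and the list of other MTERF and FASTK genes, which includes MTRES1, has the lowest median (-1.39).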

How the data were processed

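RNA-seq counts of H1299 cells with HgCl2 or EtOH were analysed, with 2 columns for each group assigned by their names. Reads had been trimmed (Trim Galore), aligned to GRCh38 with STAR 2.5.4b and counted per transcript with Rsubread by the authors, who deposited these counts without normalization; counting options are not given in the sources used here. For the FPKM table, the authors used DESeq2 1.26.0 and scaled by median ratios.

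Gene names, classes and coordinates came from GENCODE 44 on GRCh38, a later annotation than that of the authors, which held 223558 of 227368 identifiers. Fold changes came from edgeR 4.0.16 (glmQLFit with TMM, in R 4.3.3) for the 11891 transcripts that averaged 10 counts or more, a step tested on simulated data. Its p-values were not used, since each group is 1 sample. The study filtered on FPKM, which is tried as an alternative. A transcript was called at 2-fold (log2 fold change of at least 1), or when its counting interval left out 0. Intervals, shares and figures were computed with scipy 1.17.1, pandas 2.3.3 and matplotlib 3.10.9 in Python 3.11.15. Whether the replicate numbers pair the columns was checked by their deviations.

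Every member transcript that reached this mean is named, with, per pathway list, the 2 transcripts with the most counts past both calls. Members and lists were chosen with earlier results of these data known. One marker of the line is not reported here. Alternatives changed the filter, the scaling, the test, the pseudocount and the replicate block, or left out 1 column.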

Additional observations from a re-analysis of the deposited data

How the results depend on the processing

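All 3 member transcripts at least 2-fold higher and the 1 lower were called in the same direction with each setting that tested them, except that PNPT1-205 was at -0.80 on log2(FPKM + 1), which gave 0 lower members. With at least 10 counts in every column MTERF3-203 and PNPT1-205 were not tested, which left 2 calls, 2 higher and 0 lower. LRPPRC-201 turned positive with the filter on a mean FPKM above 1 (0.024), with no filter (0.16) and on the FPKM scales with pseudocounts of 1 and 0.1 (0.20 and 0.20). The transcripts of the pathway lists past 2-fold numbered 28, and 43 with the FPKM filter, 11 when each column had to reach 10 counts and 104 with no filter, settings that test more or fewer transcripts. The no-filter setting moved the median of all transcripts to -0.83, the FPKM filter to -0.21 and log2(FPKM + 0.1) to 0.29. Without 1 column, the number of member calls was 4 each time and their median lay between -0.070 and 0.064, which shows no stability, since the columns of a group count as 1 sample.

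The replicate numbers do not pair the columns by any label, and the deviations of same-numbered columns had a correlation of 0.006 over 11891 transcripts. With the replicate block 4 member transcripts were called at 2-fold, as without it, beside 40.4% of all transcripts. With counts summed, 2 member genes were called with the block, against 3 without it. The gene that differed was SLIRP, at 0.97 with the block and 1.03 without it, whose counting interval held 0. No share over all genes is given for summed counts. Depth limits TEFM, SLIRP, LRPPRC-203 and FASTKD2-206, whose counting intervals hold 0.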
